A study of Mus musculus with 21 samples.

Results

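Activator protein 1 (AP-1) subunits and immediate early genes were followed here through 10 genes fixed by symbol, *Fos*, *Fosb*, *Fosl1*, *Fosl2*, *Jun*, *Junb*, *Jund*, *Egr1*, *Atf3* and *Ier3*, of 54123 annotated genes. All 10 passed the filter on low counts in each of the 3 fits (PMNs, TECs and all libraries). The libraries were made from wild-type mice, described in the study's methods as male C57BL/6 animals 8 to 12 weeks old, 24 hours after sham surgery or renal ischemia-reperfusion injury (IRI). In IRI both renal pedicles were clamped for 32 minutes, and in sham surgery no clamp was set. Before surgery each mouse underwent remote ischemic preconditioning (RIPC), given as 3 inflations of a hind limb cuff for 5 minutes each, or a control procedure. The 21 libraries covered polymorphonuclear neutrophils (PMNs, labeled as blood cells) and tubular epithelial cells (TECs, from kidney). They comprised 2 sham control, 3 sham RIPC, 2 IRI control and 3 IRI RIPC libraries of PMNs, and 3 sham control, 3 sham RIPC, 2 IRI control and 3 IRI RIPC libraries of TECs. The study describes 3 biological replicates in each group, whereas 3 of the 8 groups here held 2 libraries. The labels do not tie a library to a mouse, so p-values measure the spread between these libraries.

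AP-1 is a dimer of basic leucine zipper proteins, built from a Jun protein (*Jun*, *Junb*, *Jund*) and a Fos protein (*Fos*, *Fosb*, *Fosl1*, *Fosl2*) or a relative such as ATF3. Immediate early genes are transcribed within minutes of a stimulus, without new protein synthesis, after MAP kinases, serum response factor, CREB or NF-κB have been activated. *Egr1* encodes a zinc finger transcription factor, *Atf3* a stress-induced factor that often represses, and *Ier3* a short-lived protein tied to cell survival. Enzymatic digestion, sorting and warming of tissue are known to induce the same genes, so transcript made in the animal and transcript made during cell isolation cannot be told apart in these libraries.

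Each library held between 20881334 and 51624602 estimated reads over its 2 files, and between 0.0709% and 0.72% of them fell on the 10 genes. The cell type labels were checked against marker lists, with levels in TPM (reads scaled to transcript length and to the library total). All PMN libraries held the calprotectin gene *S100a8* (4577 to 22347 TPM) and the neutrophil surface marker *Ly6g* (10.3 to 62.6 TPM), and 0 to 4 of 15 neutrophil markers were at 0. They also held RNA of proximal tubule cells and macrophages, although they were labeled as blood. The summed level of 15 proximal tubule markers was 1318 to 9238 TPM in sham PMNs and 464 to 858 TPM in IRI PMNs, against 4238 to 10586 TPM in sham TECs and 1663 to 3164 TPM in IRI TECs. The summed level of 8 macrophage markers was 1725 to 5752 TPM in sham PMNs, 330 to 1014 TPM in IRI PMNs and 2.14 to 23.7 TPM in TECs. At most 1 gene of each of these lists was at 0 in a PMN library. Both lists were thus lower in every IRI PMN library than in every sham PMN library, and their part in the comparisons of PMNs was not tested. The summed level of the 15 neutrophil markers was 10050.5 to 47338 TPM in sham PMNs and 21784 to 45447 TPM in IRI PMNs. Replicate 1 of the sham controls held 47338 TPM, and no other sham PMN library was above 18725 TPM. It also held the highest sham PMN value of *Fos*, *Fosl1*, *Fosl2*, *Jun*, *Junb* and *Ier3*, but not of *Fosb*, *Jund*, *Egr1* and *Atf3*. The part of neutrophil content in these values was not tested. In bulk RNA, fewer cells of a type and less RNA per cell cannot be told apart. Replicate 2 of the sham TEC controls had reads on the fewest genes, 14218, and replicate 1 of the sham PMN controls on the most, 26481. For the members' log2 fold changes given below, leaving out either of them, or any other library, at times changed a call or moved the fold by over 1.5 times. In those cases the value or range without a library is given beside the result. Counts of members called with a library left out are given at the end, and no such values are given for list genes.

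**Figure D1:**
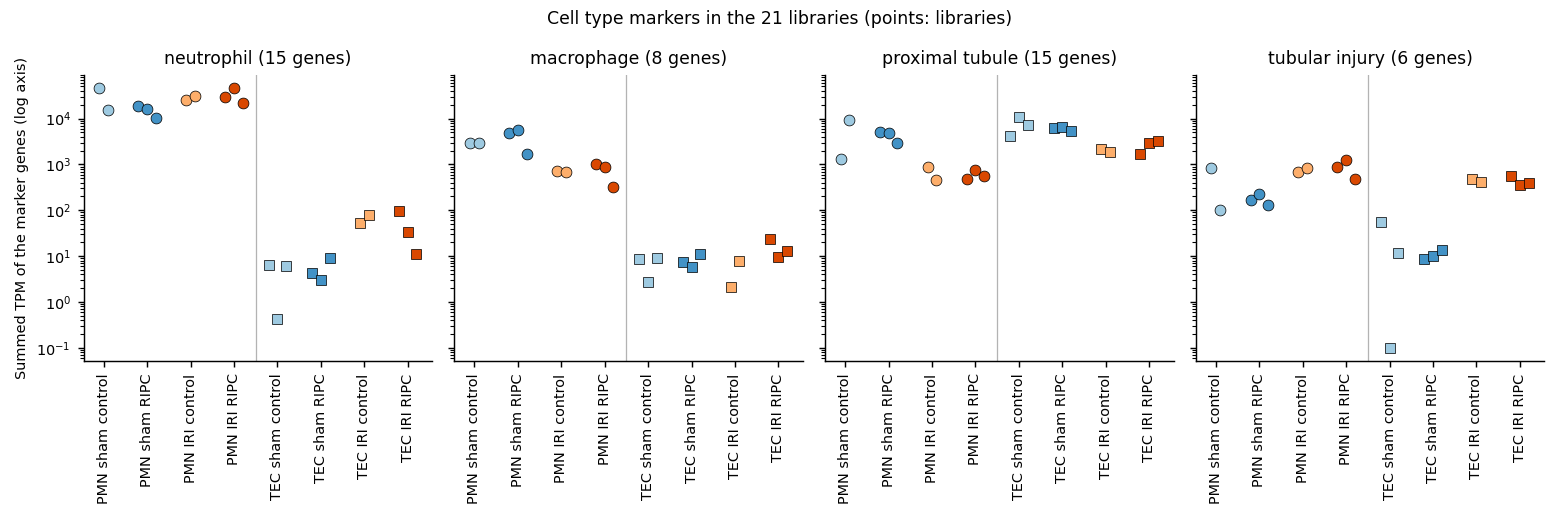
Summed TPM of 4 marker lists (vertical log axes) in each of the 21 libraries, by group, where each point is a library. Proximal tubule and macrophage markers were present in all PMN libraries and lower after IRI, while neutrophil markers reached 96.6 TPM at most in a TEC library.

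On the TPM scale, the order of the 10 genes differed between groups of libraries. In sham PMNs *Fos* (391 ± 139 TPM, SD, n = 5) and *Junb* (356 ± 163) stood first, and their ranges overlapped. *Junb* was followed by *Jun* (109 ± 25.2), with no overlap between the pair. *Atf3* (87.9 ± 39.5), *Ier3* (82.2 ± 88.8), *Egr1* (53.8 ± 40.4), *Jund* (17.1 ± 7.96), *Fosb* (10.4 ± 6.89), *Fosl1* (3.84 ± 5.29) and *Fosl2* (3.57 ± 3.33) followed, each overlapping its neighbor. In IRI PMNs *Junb* (1084 ± 284 TPM, n = 5), *Ier3* (851 ± 296) and *Fos* (618 ± 104) led with overlapping ranges and were separate from *Jun* (116 ± 34.2) and *Egr1* (115 ± 28.2). *Atf3* (58.0 ± 14.1), *Jund* (47.4 ± 17.0), *Fosl2* (26.02 ± 7.06), *Fosl1* (22.1 ± 13.7) and *Fosb* (9.94 ± 5.89) came after them, again overlapping from neighbor to neighbor.

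In sham TECs *Fos* was first (209 ± 49.4 TPM, n = 6), followed by *Jun* (107 ± 33.5), *Junb* (86.0 ± 29.8), *Egr1* (50.4 ± 26.3), *Atf3* (22.4 ± 17.2), *Fosb* (21.5 ± 7.02), *Jund* (18.5 ± 3.07) and *Ier3* (12.2 ± 7.60), with overlap between neighbors. *Fosl2* (1.06 ± 0.884 TPM) lay below every *Ier3* value, and *Fosl1* had no read in any of the 6 libraries. In IRI TECs *Fos* (185 ± 167 TPM, n = 5), *Junb* (94.7 ± 48.5), *Ier3* (67.6 ± 57.1), *Fosl1* (59.2 ± 68.1), *Jun* (55.3 ± 28.3), *Egr1* (49.8 ± 26.6), *Jund* (40.9 ± 20.1), *Atf3* (19.7 ± 12.4), *Fosb* (16.5 ± 9.78) and *Fosl2* (5.00 ± 2.73) all overlapped their neighbors. *Fosl1* therefore moved from the last place in sham TECs, with no read, to the fourth mean level in IRI TECs. That place rested on replicate 3 of the IRI RIPC group, since the other 4 libraries lay between 21.5 and 41.0 TPM, and without it the mean was 28.9 TPM and stood at place 7. Among all genes of a library, *Junb* ranked between 56 and 101 in IRI PMNs and *Ier3* between 63 and 181.

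**Figure D2:**
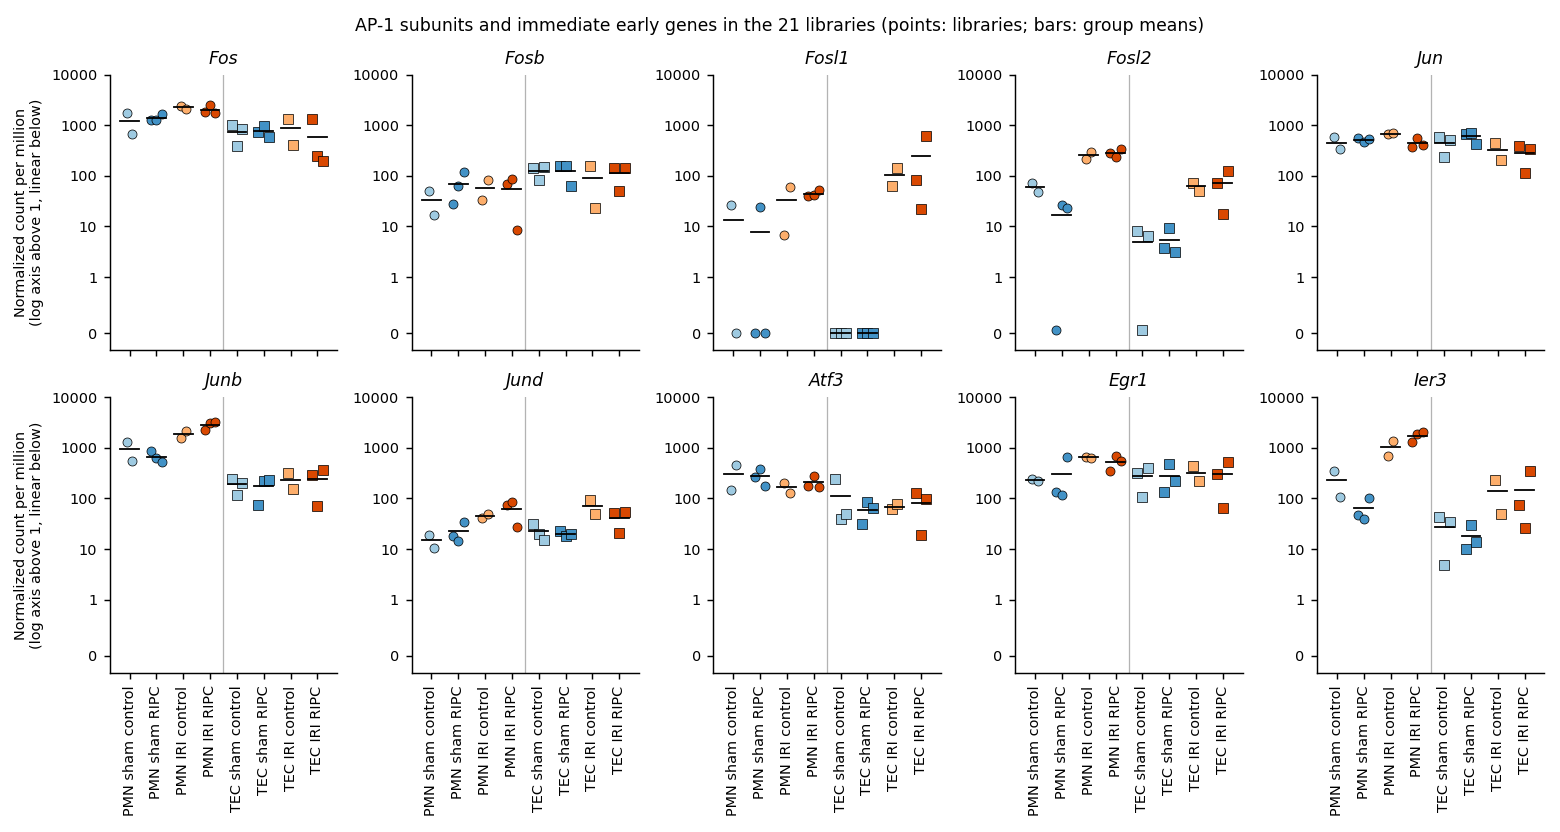
Normalized CPM (counts scaled to library size and by TMM) of the 10 genes (vertical axes, logarithmic above 1 and linear below) in each library of the 8 groups, with points for libraries and bars for group means. *Fosl1* lay at 0 in all 6 sham TEC libraries and between 21.8 and 621 in the 5 IRI TEC libraries, and *Ier3* in IRI PMNs lay above every sham PMN library.

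The first comparison asked which of these genes differed between IRI and sham surgery in PMNs, averaged over RIPC and control. *Ier3* was higher after IRI, and it was the only one of the 10 genes past an adjusted p of 0.05, where 0.416% of all 25002 genes tested were called, 0.364% higher and 0.052% lower. *Junb* and *Fosl2* had higher values in every IRI library than in every sham library without passing the test. Without adjustment, 6 of the 10 genes had p under 0.05, all of them higher after IRI (*Ier3*, *Junb*, *Fosl2*, *Jund*, *Fos* and *Egr1*), against 11.8% of all genes in either direction. The median log2 fold change of the 10 genes was 1.34, and that of all genes was -0.01. Taken without sign, the median over all genes was 1.33. Among genes tested in PMNs, the 10 genes lay between percentiles 80.0 and 99.8 of mean level. Their spread between libraries lay at percentile 21.1 or below, apart from *Fosl1* at 61.9. Shares and medians over all genes, here and below, were not matched for level or spread.

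*Ier3* (ENSMUSG00000003541.6, chromosome 17, 35821684 to 35822923, GRCm38) was measured in normalized CPM (read counts scaled to library size and by TMM, comparable between libraries for one gene). It stood at 353 and 105 in the sham controls, at 47.6, 39.4 and 104 in the sham RIPC libraries, at 693 and 1390.3 in the IRI controls, and at 1305, 1852.5 and 2024 in the IRI RIPC libraries. Every IRI value was above every sham value. The log2 fold change was 3.46 (SE 0.47, edgeR adjusted p = 0.0255), a ratio of group means of 11.2. Without replicate 1 of the sham controls, the highest sham value, the ratio was 19.6 (log2 fold change 4.04). That library also had the highest summed neutrophil markers of all PMN libraries (47338 TPM), and the part of this in the *Ier3* values was not tested. The call was lost without any one of the 3 IRI RIPC libraries, with adjusted p = 0.0641 without replicate 1, 0.0865 without replicate 2 and 0.0678 without replicate 3, while the log2 fold change stayed between 3.40 and 3.56.

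*Junb*, a Jun family subunit that often restrains JUN-driven growth, had 1308 and 558 normalized CPM in the sham controls, 851, 619 and 514 in the sham RIPC libraries, 1559 and 2190.0 in the IRI controls, and 2286, 3089.8 and 3213 in the IRI RIPC libraries. The groups did not overlap, the closest values being replicate 1 of the sham controls and replicate 1 of the IRI controls. The log2 fold change was 1.55 (SE 0.28), and the adjusted p of edgeR was 0.0696. Without replicate 1 of the sham controls it was 1.93 with an adjusted p of 0.0106.

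*Fosl2*, which encodes the Fos-related antigen FRA2, was at 72.9 and 47.3 in the sham controls, at 0.0495, 26.7 and 22.8 in the sham RIPC libraries, at 216 and 301 in the IRI controls, and at 285, 239 and 335 in the IRI RIPC libraries. All IRI values lay above all sham values, and the log2 fold change was 3.10 (SE 1.07, edgeR adjusted p = 0.364). Without replicate 1 of the sham RIPC libraries, which held the lowest value, the log2 fold change was 2.81 with an adjusted p of 0.0263. These 3 genes, *Ier3*, *Junb* and *Fosl2*, were the members without overlap, and 5.51% of all genes did not overlap in this comparison, 3.43% being higher and 2.08% lower after IRI.

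The promoters of these 3 genes are shown together with that of *Fos* because *Ier3*, *Junb* and *Fosl2* were highest in the same PMN libraries, those after IRI, whereas the *Fos* groups met at their edges. The sequences are RefSeq's for GRCm38.p6, from 250 bases before to 50 bases after the annotated start, on the strand of the gene. Capitals mark matches, on either strand, to the NF-κB motif and to the CRE half-site TGACG, and no match to the AP-1 motif TGANTCA, the full CRE TGACGTCA or the CArG box of serum response factor was present in them.
Ier3 (chr17:35821463-35821762, plus strand): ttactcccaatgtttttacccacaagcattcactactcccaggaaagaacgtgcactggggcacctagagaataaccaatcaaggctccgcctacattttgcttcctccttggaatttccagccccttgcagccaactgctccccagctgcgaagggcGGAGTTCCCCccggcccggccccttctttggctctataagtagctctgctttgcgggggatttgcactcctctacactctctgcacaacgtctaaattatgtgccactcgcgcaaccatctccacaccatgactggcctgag
Fosl2 (chr5:32136222-32136521, plus strand): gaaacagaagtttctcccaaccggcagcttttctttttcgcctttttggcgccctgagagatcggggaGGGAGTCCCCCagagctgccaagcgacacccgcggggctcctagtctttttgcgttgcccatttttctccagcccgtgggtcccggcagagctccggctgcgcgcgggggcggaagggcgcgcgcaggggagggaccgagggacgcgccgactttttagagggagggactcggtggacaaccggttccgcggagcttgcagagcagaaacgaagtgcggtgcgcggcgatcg
Junb (chr8:84978699-84978998, minus strand): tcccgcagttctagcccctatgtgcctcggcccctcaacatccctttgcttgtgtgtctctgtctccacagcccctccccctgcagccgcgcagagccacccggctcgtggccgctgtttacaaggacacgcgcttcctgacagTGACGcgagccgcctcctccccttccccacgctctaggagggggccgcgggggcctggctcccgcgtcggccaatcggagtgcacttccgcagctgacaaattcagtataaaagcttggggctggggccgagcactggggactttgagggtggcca
Fos (chr12:85473640-85473939, plus strand): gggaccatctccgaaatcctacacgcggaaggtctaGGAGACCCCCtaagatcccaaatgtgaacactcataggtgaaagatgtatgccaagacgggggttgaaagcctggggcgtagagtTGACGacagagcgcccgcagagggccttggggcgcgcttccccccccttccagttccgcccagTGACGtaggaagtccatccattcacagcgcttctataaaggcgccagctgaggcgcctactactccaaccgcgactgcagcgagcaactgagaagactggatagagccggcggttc

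Such entries were given for 8 of the 10 genes, those other than *Fosl1* and *Egr1*. The *Jund* entry (chr8:70697489-70697788) lay wholly before the span of the gene as counted here (70698949 to 70700616), so it does not cover that gene's start. It held no match to any of the motifs searched. The *Fosl2* and *Atf3* entries lay inside the spans of their genes. A match to the NF-κB motif was present in 4 of the 8 (*Fos*, *Fosb*, *Fosl2* and *Ier3*), against 4.51% of 32851 promoters of this length, and the 2 matches in *Fosl2* overlapped each other. The CRE half-site, 5 letters that also lie within the full CRE, was present in 4 of the 8 (*Fos*, *Fosb*, *Junb* and *Atf3*), against 20.8% of all promoters. The AP-1 motif, the full CRE and the CArG box were present in none of the 8, against 7.81%, 1.79% and 1.63% of all promoters. The 8 entries, that of *Jund* among them, were 46.7% to 68.3% G or C, and shares over all promoters were not matched for this. Matches are letters only, bases outside this window were not searched, and the part of any match in the levels was not tested.

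The other members overlapped between IRI and sham PMNs when scaled over PMN libraries. *Jund*, the Jun subunit usually held at steady levels, was between 10.4 and 34.5 normalized CPM after sham surgery and between 27.1 and 86.8 after IRI, with a log2 fold change of 1.54 (SE 0.57, edgeR adjusted p = 0.392). *Egr1* was between 119 and 653 after sham surgery and between 346 and 700.1 after IRI, with a log2 fold change of 1.15 (SE 0.50, adjusted p = 0.413). Leaving out replicate 3 of the sham RIPC libraries, the highest sham value, brought the adjusted p to 0.0454. With a library left out, the log2 fold change of *Egr1* lay between 0.97 and 1.76.

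*Fos*, the prototype immediate early gene, was between 667 and 1731 in sham PMNs and between 1764 and 2457 in IRI PMNs. The highest sham value, in replicate 1 of the sham controls, was just below the lowest IRI value on this scale, which is set over all 21 libraries, and the groups overlapped on the scale set over PMN libraries alone, which was used to count genes without overlap. For *Fos* the log2 fold change was 0.71 (SE 0.27, edgeR adjusted p = 0.398). Without that replicate the log2 fold change was 1.15 with an adjusted p of 0.0336. *Atf3* went the other way, with 144 to 454 in sham PMNs and 130 to 277 in IRI PMNs (log2 fold change -0.63, SE 0.41, adjusted p = 0.537), and its log2 fold change was -0.04 without replicate 2 of the sham controls. *Jun* (331 to 571 after sham surgery and 373 to 685 after IRI) and *Fosb* (16.7 to 119 and 8.37 to 85.0) overlapped widely. *Fosl1* had reads in 2 of 5 sham libraries, at 26.6 and 23.7, and in all 5 IRI libraries, between 6.81 and 59.4, with a ratio of group means of 3.96 and an adjusted p of 0.756.

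**Figure D3:**
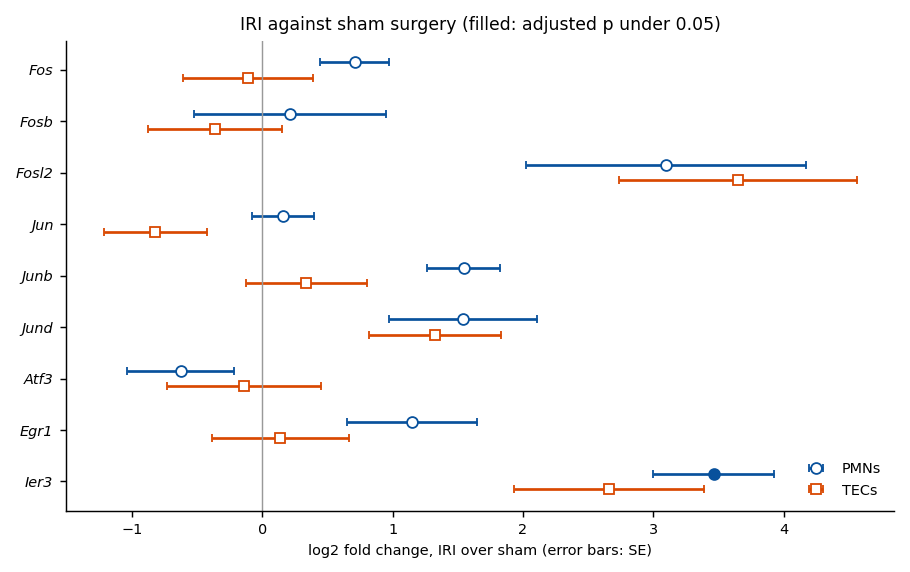
Log2 fold change of IRI over sham surgery (horizontal axis) with SE for 9 of the 10 genes in PMNs and TECs, where filled symbols have an edgeR adjusted p under 0.05. *Fosl1* is not drawn because sham TECs had no read of it, and *Ier3* in PMNs, at 3.46, is the only filled symbol.

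In TECs, *Fosl1* was the only member past the threshold between IRI and sham surgery, and it was higher, where 1.4% of 25917 genes were called and 0.255% were called higher. *Fosl1* (ENSMUSG00000024912.6, chromosome 19, 5447547 to 5455946, GRCm38) encodes the Fos-related antigen FRA1, which lacks the transactivation domain of FOS. It had no read in any of the 6 sham TEC libraries. After IRI it was at 62.2 and 141 normalized CPM in the controls and at 81.6, 21.8 and 621 in the RIPC libraries. A count of 0 allows up to 3 reads per file, 0.149 to 0.265 normalized CPM in the sham libraries, so that the mean after IRI was at least 700.5-fold higher and the lowest IRI library at least 82.4-fold higher. Without replicate 3 of the IRI RIPC group, which held 621, the mean was 76.7 and at least 289.5-fold higher. The adjusted p of edgeR was 0.00206, and the call was kept without each of the 11 TEC libraries in turn. These floors cover counting error only, since the reads carry no molecular identifiers.

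*Fosl2* was at 8.23, 0.0498 and 6.58 normalized CPM in the sham controls of TECs and at 3.72, 9.17 and 3.18 in the sham RIPC libraries, against 72.0 and 51.1 in the IRI controls and 73.5, 17.2 and 122 in the IRI RIPC libraries. No IRI value reached down to a sham value, and the log2 fold change was 3.65 (SE 0.91, edgeR adjusted p = 0.0700). It passed the threshold without replicate 1 of the IRI controls (adjusted p = 0.0294), without replicate 2 of the IRI controls (0.0217) or without replicate 2 of the IRI RIPC libraries (0.0462). *Fosl1* and *Fosl2* were the 2 members without overlap, where 4.58% of all genes did not overlap and 1.43% were higher after IRI.

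*Ier3* in TECs ran from 4.86 through a median of 21.8 to 43.5 normalized CPM after sham surgery and from 26.1 through 74.3 to 342 after IRI. Replicate 2 of the IRI RIPC libraries lay within the sham range. The log2 fold change was 2.66 (SE 0.73, edgeR adjusted p = 0.0993), with an adjusted p of 0.0123 without replicate 2 of the IRI controls and of 0.0464 without replicate 2 of the IRI RIPC libraries. It was 1.92 without replicate 1 of the IRI controls (adjusted p = 0.19) and 1.91 without replicate 3 of the IRI RIPC libraries (0.178). *Jund* was between 15.3 and 31.8 after sham surgery and between 21.02 and 93.4 after IRI (log2 fold change 1.32, SE 0.51, adjusted p = 0.252).

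*Jun* was lower on average after IRI, between 114 and 449 against 237 to 706 normalized CPM after sham surgery (log2 fold change -0.82, SE 0.40, edgeR adjusted p = 0.344), and the groups overlapped. *Junb* was between 75.3 and 247 after sham surgery and between 69.8 and 363 after IRI (log2 fold change 0.34, SE 0.46, adjusted p = 0.819). *Fos* (387 to 1009.8 against 200 to 1351), *Fosb* (62.0 to 160 against 22.7 to 155), *Egr1* (108 to 477 against 63.6 to 534) and *Atf3* (31.5 to 241 against 18.7 to 128) overlapped between sham and IRI, with adjusted p-values of 0.828 or more. Without adjustment, 4 of the 10 genes had p under 0.05, all higher after IRI (*Fosl1*, *Fosl2*, *Ier3* and *Jund*), against 15% of all genes in either direction. The median log2 fold change of the 10 was 0.24, and that of all genes was 0.15, or 1.17 when taken without sign. Among genes tested in TECs, the 10 genes lay between percentiles 84.0 and 99.6 of mean level. Their spread between libraries lay between percentiles 3.05 and 21.7.

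One library of IRI TECs stood apart. Replicate 3 of the IRI RIPC group had the highest value of 5 of the 10 genes among TECs (*Fosl1*, *Fosl2*, *Junb*, *Egr1* and *Ier3*) and the lowest *Fos*. Replicate 2 of the same group had the lowest *Jun*, *Junb*, *Egr1* and *Atf3* of all TEC libraries. Tubular injury markers (6 genes, among them *Havcr1* and *Lcn2*) separated the surgeries, with a summed level of 0.101 to 55.1 TPM in sham TECs and 364 to 553 TPM in IRI TECs. The same genes summed to 100 to 828 TPM in sham PMNs and 492 to 1218 TPM in IRI PMNs, so the list was not particular to TECs. The neutrophil list was 0.434 to 8.95 TPM in sham TECs and 11.2 to 96.6 TPM in IRI TECs, with 4 to 10 of its 15 genes at 0 and *Ly6g* at most 0.813 TPM. Its part in the *Fosl1* and *Fosl2* values was not tested.

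Whether PMNs and TECs differed in their response to IRI was tested as a difference of the fold changes in a fit to all 21 libraries. None of the 10 genes passed, and none of the 31769 genes tested by edgeR did (0%), although 9.76% of all genes had an unadjusted p under 0.05. Of the members, *Fosl1* alone had an unadjusted p under 0.05, with an adjusted p of 0.175. DESeq2's Wald test called 1 of the 10 genes and 2395 of all genes in this comparison. *Junb*, whose values separated in PMNs and overlapped in TECs, had an adjusted p of 0.596 for the difference.

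PMNs and TECs were then compared at each surgery. After sham surgery *Junb* and *Fosl1* were higher in PMNs past the threshold, where 2.62% of 31769 genes were called, 1.49% higher and 1.13% lower. *Junb* was 514 to 1308 normalized CPM in the 5 sham PMN libraries and 75.3 to 247 in the 6 sham TEC libraries, without overlap (log2 fold change 2.11, SE 0.44, edgeR adjusted p = 0.00934). Leaving out replicate 1 of the sham PMN controls brought it to 0.0535. *Junb* was the one member whose values did not overlap after sham surgery, against 7.51% of all genes, 3.76% being higher in PMNs.

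The *Fosl1* call after sham surgery rested on 2 PMN libraries, since the other 3 and all TEC libraries were at 0 (edgeR adjusted p = 0.0166). It was lost without replicate 1 of the sham PMN controls or replicate 2 of the sham RIPC PMNs (adjusted p = 1 each). It was also lost without replicate 2 (0.0864) or 3 (0.0509) of the sham TEC controls, and without replicate 1 (0.0518) or 2 (0.0541) of the sham RIPC TECs. *Ier3* (39.4 to 353 against 4.86 to 43.5) had a log2 fold change of 2.45 (SE 0.66, adjusted p = 0.0527), and *Atf3* (144 to 454 against 31.5 to 241) one of 1.82 (SE 0.59, adjusted p = 0.114). *Ier3* had a log2 fold change of 1.80 without replicate 1 of the sham control PMNs (adjusted p = 0.178). It passed without any one of 7 libraries, namely replicate 2 of the sham control PMNs (0.0139), either IRI control of PMNs (0.0247 and 0.0312), either IRI control of TECs (0.0224 and 0.0221) and replicates 2 (0.0393) and 3 (0.0275) of the IRI RIPC TECs. *Atf3* passed without replicate 1 of the sham TEC controls (0.0295), and its log2 fold change lay between 1.26 and 2.48 with a library left out. *Fosb* went the other way in its means, at 55.0 ± 40.0 (SD, n = 5) in PMNs and 125 ± 41.9 (n = 6) in TECs, with an adjusted p of 0.301 from edgeR.

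After IRI *Junb* and *Ier3* were higher in PMNs past the threshold, where 2.67% of all genes were called, 1.49% higher and 1.17% lower. *Junb* was 1559 to 3213 normalized CPM in PMNs and 69.8 to 363 in TECs (log2 fold change 3.29, SE 0.50, edgeR adjusted p = 0.000827). *Ier3* was 693 to 2024 in PMNs and 26.1 to 342 in TECs (log2 fold change 3.22, SE 0.75, adjusted p = 0.0214), and leaving out replicate 2 of the IRI TEC controls brought it to 0.0963. The *Ier3* log2 fold change was 3.96 without replicate 1 of the IRI TEC controls and 4.00 without replicate 3 of the IRI RIPC TECs. *Fos*, *Fosl2* and *Atf3* also did not overlap, so that 5 members were without overlap against 6.88% of all genes, 3.94% being higher in PMNs. Without adjustment 4 members had p under 0.05, all higher in PMNs, against 14.4% of all genes. *Fos* was 1764 to 2457 in PMNs and 200 to 1351 in TECs, with a log2 fold change of 1.57 (SE 0.51, adjusted p = 0.127). It passed without replicate 2 of the sham control PMNs (0.0451) or replicate 1 of the IRI RIPC TECs (log2 fold change 2.26, 0.00683). For *Fosl2* (216 to 335 against 17.2 to 122) and *Atf3* (130 to 277 against 18.7 to 128) the adjusted p-values were 0.368 and 0.343. Since the PMN libraries held proximal tubule RNA, at 464 to 858 TPM after IRI and 1318 to 9238 TPM after sham surgery, the part of this RNA in the PMN values is given by no comparison here and was not tested.

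RIPC was compared with the control procedure within each surgery and cell type. None of the 10 genes passed in any of these 4 comparisons or in the 2 interactions of RIPC with surgery. Among all genes edgeR called 0.004% in sham PMNs, 0% in IRI PMNs, 0% in sham TECs, 0.00386% in IRI TECs, and 0% in each interaction. Unadjusted p-values under 0.05 were found for 1 of the 10 genes in sham PMNs, for 1 in the interaction in PMNs and for 0 in the other 4 tests, against 4.6% of all genes in sham PMNs, 2.72% in IRI PMNs, 4.53% in sham TECs, 4.35% in IRI TECs, and 5.74% and 7.21% for the interactions in PMNs and TECs. DESeq2's Wald test also called 0 of the 10 genes in all 6, and between 425 and 813 of all genes. Other settings called 1 member, *Ier3* in sham PMNs, namely edgeR without the filter on low counts (adjusted p = 0.0448) and DESeq2 with apeglm (s value 0.008). Of all genes, these settings called 139 of 38823 and 632 of 25002 in sham PMNs. With apeglm and s values under 0.01, the study's own rule, 155 of 25002 genes were called in IRI PMNs. In TECs that rule called 157 of 25917 after sham surgery and 363 after IRI.

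*Ier3* was the member with the smallest p in sham PMNs. Its RIPC libraries, at 47.6, 39.4 and 104 normalized CPM, lay just below its control libraries at 353 and 105 (log2 fold change -1.89, SE 0.58, edgeR adjusted p = 0.705). Without replicate 1 of the sham controls, the library at 353, the log2 fold change was -0.80. After IRI its RIPC libraries, at 1305, 1852.5 and 2024, overlapped the controls at 693 and 1390.3. The interaction was 2.58 on the log2 scale (SE 0.85, adjusted p = 0.719), 1.5 without replicate 1 of the sham controls, and 3.18 without replicate 2 of the sham controls or replicate 2 of the IRI controls. *Fosl2* was also lower without overlap in sham RIPC PMNs (0.0495, 26.7 and 22.8 against 72.9 and 47.3, log2 fold change -1.89, SE 1.37, adjusted p = 0.737). These were 2 of 10 members without overlap, where 12.8% of all genes did not overlap 8.24% being lower and 4.52% higher with RIPC, and 3 libraries against 2 give a weak comparison of ranges.

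In IRI PMNs *Jun* was lower with RIPC, at 373, 549.8 and 397 against 658 and 685 normalized CPM (log2 fold change -0.65, SE 0.33, edgeR adjusted p = 0.920), and *Junb* was higher, at 2286, 3089.8 and 3213 against 1559 and 2190.0 (log2 fold change 0.57, SE 0.39, adjusted p = 0.920). Both were without overlap, as were 16.5% of all genes. No member was without overlap between RIPC and control in TECs, against 7.85% of all genes after sham surgery and 16.6% after IRI. In sham TECs *Fos* was 739 ± 319 (SD, n = 3) in controls and 768 ± 200.2 (n = 3) with RIPC, and *Junb* 190 ± 65.2 and 175 ± 86.8. In IRI TECs *Fosl1* was 102 ± 55.9 (n = 2) in controls and 242 ± 330.2 (n = 3) with RIPC, a spread set by replicate 3 of the RIPC group.

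The makeup of the 2 families was described on the TPM scale. In PMNs *Fos* made up 88.5% to 96.4% of the summed Fos family level after IRI and 93.5% to 98.7% after sham surgery. In sham TECs it made up 88.1% to 93.5%, and in IRI TECs 15.9% to 86.8%. *Fosl1* went from 0% in all 6 sham TEC libraries to between 5.66% and 73.5% in IRI TECs, while the summed level of the family overlapped (142 to 295 TPM after sham surgery and 108 to 461 TPM after IRI). The 15.9% of *Fos* and the 73.5% of *Fosl1* both came from replicate 3 of the IRI RIPC group. In the other IRI TEC libraries *Fos* made up 62.9% to 86.8% and *Fosl1* 5.66% to 32.2%.

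Within the Jun family, *Junb* made up 60.1% to 80.0% in sham PMNs and 79.3% to 93.0% in IRI PMNs, against 18.6% to 50.9% in sham TECs and 42.8% to 58.4% in IRI TECs. *Jund* made up 5.99% to 14.7% in sham TECs and 16.4% to 27.7% in IRI TECs, without overlap, and *Jun* 38.3% to 71.0% and 25.1% to 32.8%, also without overlap. The summed Jun family level was 341 to 785 TPM in sham PMNs and 921 to 1587 TPM in IRI PMNs, again without overlap. These shares are descriptions of values already compared gene by gene, and no test was run on them.

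**Figure D4:**
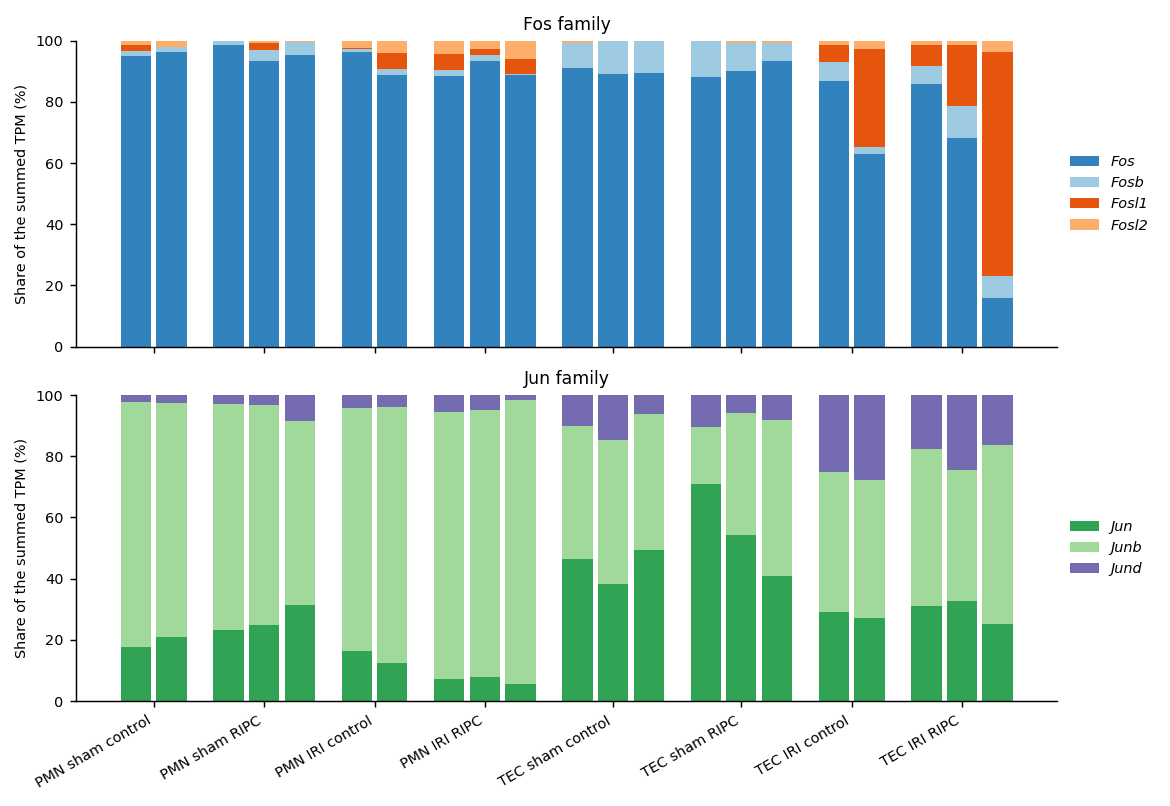
Share of the summed TPM of the Fos family (upper panel) and the Jun family (lower panel) held by each gene (vertical axes, percent), with 1 stacked bar per library grouped by cell type, surgery and procedure. *Fosl1* appears in all 5 IRI TEC libraries and in no sham TEC library, and *Junb* fills most of the Jun bars in PMNs.

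Reads of a gene were split over its transcripts by Salmon. *Atf3*, *Jun*, *Jund* and *Ier3* were carried by 1 transcript each (100% in all libraries), and *Fosl1-201* carried a median of 100% of *Fosl1* reads in PMNs and 96.0% in TECs. *Fosb* was divided, with *Fosb-201* at a median of 44.1% in PMNs (0% to 68.2%) and 78.5% in TECs (42.4% to 96.7%), and *Fosb-207* at 45.7% and 12.8%. The ranges overlapped, and with 50-base single-end reads the split between transcripts is an estimate. *Fosl2* was divided as well. In 4 of the 6 sham TEC libraries its coding transcript *Fosl2-201* held 17.2% to 42.8% of the reads, the rest lying on the retained-intron transcripts *Fosl2-202* and *Fosl2-203*, and in the other 2 it held 100%, whereas it held 72.4% to 100% in IRI TECs. As reads, *Fosl2-201* ran from 2 to 175 in sham TECs and from 399 to 1911 in IRI TECs, without overlap. *Egr1-202* carried a median of 78.5% in PMNs and 79.1% in TECs.

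Genes around AP-1 were taken as 5 lists. Of 39 other immediate early genes, 36 were tested in PMNs, and 5 were higher after IRI and 0 lower past the threshold, against 0.364% and 0.052% of all genes. They were *Nr4a1* (an orphan nuclear receptor, log2 fold change 2.53), *Btg1* (an antiproliferative factor, 2.04), *Gadd45b* (2.02), *Nfkbia* (the NF-κB inhibitor IκBα, 2.23) and *Egr3*, which was at 0 to 0.0519 normalized CPM in sham PMNs and 11.0 to 44.5 in IRI PMNs. Without adjustment 19 of the 36 had p under 0.05, each higher after IRI, against 11.8% of all genes in either direction, and the list's median log2 fold change was 1.62 against -0.01 over all genes. In TECs 4 of 38 were higher and 1 was lower, against 0.255% and 1.15% of all genes, with a list median of 0.84 against 0.15. *Btg1* (log2 fold change 2.73) and *Ccn2*, which encodes the matricellular protein CTGF (0.0498 to 15.7 normalized CPM after sham surgery and 3.04 to 1090 after IRI), were among the higher, as were *Ier5* (0 to 3.04 and 0.770 to 38.5) and *Arc* (0 to 1.59 and 0 to 49.7), and the last 3 overlapped between the groups. *Id2*, an inhibitor of helix-loop-helix factors, was lower (log2 fold change -1.88). *Btg1* was the one gene of this list called higher in both cell types.

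Of 29 reported AP-1 target genes, 26 were tested in each cell type. In PMNs 5 were higher after IRI, the chemokine gene *Cxcl2* (log2 fold change 2.99), the hyaluronan receptor gene *Cd44* (2.75), the urokinase receptor gene *Plaur* (2.56), *Il1b* (1.97) and the heme oxygenase gene *Hmox1* (3.24), against 0.364% of all genes, and the list's median was 1.48 against -0.01 over all genes. In TECs 3 were higher, against 0.255% of all genes, with a list median of 2.02 against 0.15. They were the intermediate filament gene *Vim* (0 to 5.69 normalized CPM after sham surgery and 16.5 to 57.1 after IRI), the galectin gene *Lgals3* (0.0997 to 89.2 and 461 to 1251) and *Cxcl2* (0 to 0.114 and 3.88 to 35.7), each without overlap. None of the list was called lower in either cell type. *Il1b* is also in the neutrophil marker list, and its highest value in a sham TEC library was 2.44 normalized CPM.

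The remaining lists held fewer called genes. Of 21 tested genes of the MAP kinase and SRF pathway, *Map2k3*, a kinase upstream of p38, was higher in IRI PMNs (log2 fold change 2.35) and none was called in TECs. None of the other basic leucine zipper partners was called between IRI and sham surgery, 20 being tested in PMNs and 19 in TECs. A list of 16 genes reported to rise on tissue dissociation held mostly heat shock genes. Of these 16, *Mcl1*, an antiapoptotic BCL2 relative and no heat shock gene, was higher (1.92) and the mitochondrial chaperonin gene *Hspe1* lower (-3.40) in IRI PMNs, and none was called in TECs. In PMNs the summed levels of the MAP kinase and SRF list (135 to 230.3 TPM after sham surgery and 304 to 450.2 after IRI) and of the leucine zipper partners (110 to 319 and 346 to 462) did not overlap. The summed level of the dissociation list was 1916 to 5233 TPM in sham PMNs and 3414 to 4320 TPM in IRI PMNs, and 3375 to 4854 TPM in sham TECs against 1732 to 2912 TPM in IRI TECs. It was thus lower in every IRI TEC library than in every sham TEC library, the libraries between which *Fosl1* and *Fosl2* were higher after IRI, and its part in the levels of the 10 genes was not tested. No gene of any of the 5 lists passed in the comparisons of RIPC with control.

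Between cell types, 12 of 28 AP-1 target genes were higher in PMNs after sham surgery and 8 after IRI, and none was lower, against 1.49% of all genes higher at each surgery. Those with the smallest p after sham surgery were *Cxcl2*, *Mmp8*, *Vim*, *Il1b*, *Mmp9* and *Ptgs2*, of which *Mmp8*, *Mmp9* and *Il1b* belong to the neutrophil marker list. Of 38 immediate early genes, 6 were higher in PMNs after sham surgery, with *Btg1* (log2 fold change 3.33) and *Nfkbia* (3.20) first, and after IRI 7 were higher, with *Nfkbia* (4.64) first, and *Ccn1* (-4.33) was lower, against the same 1.49% of all genes higher. Among the leucine zipper partners *Batf* was higher in PMNs after IRI. The mitochondrial chaperonin gene *Hspd1* was lower in PMNs at both surgeries (-2.34 and -2.29). After IRI *Hspe1* (-2.79) and *Hsp90ab1* (-1.58) were lower too, and *Mcl1* (2.53) and *Hspa5* (1.70) were higher.

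Likeness was described by Pearson's correlation of log2 CPM plus 1, centered within each cell type, over the 21 libraries, which share depth and cell makeup. Values were not centered by surgery, so differences between IRI and sham surgery enter these correlations. *Junb* was most like *Nfkbia* (r = 0.93), *Fosl1* most like the epithelial membrane gene *Emp1* (r = 0.93), *Ier3* most like the uridine phosphorylase gene *Upp1* (r = 0.90) and *Fosl2* most like *Rbm7* (r = 0.89). Within the 10 genes, *Fosl2* and *Ier3* (r = 0.88), *Junb* and *Ier3* (r = 0.84) and *Fosl1* and *Fosl2* (r = 0.80) were the closest pairs, and *Fos* was closest to *Jun* (r = 0.69). *Fos* and *Fosl1* were not alike (r = -0.09). For the remaining members the first genes were *Lrrfip1* for *Fos* (0.79), *Gm6225* for *Fosb* (0.75), *Pnisr* for *Jun* (0.77), *Ctsl* for *Jund* (0.85), *Lnx2* for *Egr1* (0.81) and *Ggh* for *Atf3* (0.76). Within PMNs alone, r was 0.25 for *Jun* with *Pnisr* and 0.24 for *Atf3* with *Ggh*, against 0.92 and 0.91 within TECs.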

How the data were processed

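RNA-Seq libraries of PMNs and TECs were sequenced as 50-base single-end reads, and 2 files were deposited for each. The 2 files of a library differed by less than counting error (median chi-square over its expectation 0.0262 to 0.135), so they were added as 1 library and are not independent reads. Per the submitters' processing notes and methods, the authors trimmed reads with Trim Galore 0.6.4 and quantified them with Salmon 1.0.0 (k-mer length 31) against the mouse Gencode transcriptome vM23. The deposited estimated counts and the deposited TPM values are given per transcript. Salmon divides reads among similar transcripts, so these counts are estimates. Estimated counts were added over the transcripts of a gene and over both files and rounded to whole numbers. Of 140748 transcripts, 139864 were matched to genes in Gencode M21 of GRCm38, and the 884 left out held 0.139% to 0.255% of reads. X-linked, Y-linked and mitochondrial genes did not enter the tests.

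Genes were filtered with filterByExpr and scaled by TMM, and edgeR 4.0.16 (R 4.3.3) was used with its quasi-likelihood F test, with Benjamini-Hochberg adjustment over all genes tested and a threshold of 0.05. PMNs (25002 genes) and TECs (25917 genes) were fitted separately, and comparisons between them used all 21 libraries (31769 genes). IRI was compared with sham surgery as the average of the RIPC and control arms. The scripts were tested on simulated data. The alternatives used limma 3.58.1, DESeq2 1.42.0 and apeglm 1.24.0. The named genes were the 10 members and, of each list, at most 6 genes past the threshold by smallest p, with the gene most like each member, and the members and lists were chosen with earlier results of these data known.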

Additional observations from a re-analysis of the deposited data

How the results depend on the processing

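The count of the 10 genes called between IRI and sham PMNs was 1. It was 3 without the filter on low counts, 2 with an offset for transcript length, 0 with the replicate block, 4 by DESeq2's Wald test, 2 by limma voom, 5 by DESeq2 with apeglm, and 0 to 3 when a library was left out. Of all genes, 971 of 38823 were called without the filter, 108 of 25002 with the offset and 23 with the block. The Wald test called 1955, voom 398 and apeglm 2154 of 25002. In TECs the count of the 10 genes was 1. It was 2 with scaling by library size only, 3 without the filter, 4 by the Wald test, 2 by voom, 4 with apeglm, and 1 to 3 with a library left out. Of all genes, 464 of 25917 were called with scaling by library size only and 1289 of 39528 without the filter. The Wald test called 2234, voom 859 and apeglm 2568 of 25917. Between PMNs and TECs the count of the 10 genes was 2 after sham surgery, and 4 without the filter, 5 by the Wald test and 0 to 3 with a library left out. *Ier3*, not called above, passed in 14 of 31 other settings, 7 of which left out a library. *Fosl1* passed in 24 of the 31 and *Junb* in 30. Over all genes, 2222 of 43623 were called without the filter and 4753 of 31769 by the Wald test. After IRI the count of the 10 genes was also 2, and 4 by voom and 1 to 3 with a library left out. *Fos*, not called above, passed in 6 of 31 other settings, 2 of which left out a library. Voom called 2431 of 31769 genes in this comparison. For the difference in response the count of the 10 genes was 0, and 1 without the filter, 1 by the Wald test and 0 to 1 with a library left out. Of all genes, 722 of 43623 were called without the filter and 2395 of 31769 by the Wald test. For RIPC in sham PMNs the count of the 10 genes was 0, and 1 without the filter, 1 with apeglm and 0 with any library left out. Of all genes, 139 of 38823 were called without the filter and 632 of 25002 with apeglm. None of the members' log2 fold changes given above changed sign under any of these settings, and the cause of the changed counts was not tested.

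Whether replicate numbers pair the libraries was not decided. After centering on group means, the median correlation of same-numbered libraries was 0.0016 in PMNs and -0.0152 in TECs. That of libraries with other numbers was -0.0010 and 0.0108. Centering makes the libraries of a group of 2 exact opposites, and no correlation was taken between a PMN and a TEC library. With the replicate block *Ier3* had an adjusted p of 0.0842 between IRI and sham PMNs and *Fos* one of 0.0431 between PMNs and TECs after IRI. Scaling by library size only moved the median log2 fold change of the members by -0.257 between IRI and sham PMNs. Over all genes, the 104 called between IRI and sham PMNs became 23 to 2154 under the other settings and 13 to 393 with a library left out, and the 363 in TECs became 37 to 2568 and 92 to 714. The 832 called between PMNs and TECs after sham surgery became 773 to 4753 and the 847 after IRI 816 to 3725. Groups of 2 and 3 libraries limit every comparison of RIPC with control.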
